A study of Mus musculus with 2 samples.

Results

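The 6 genes described here are Thbs4, Stag3, Bmp3, Rnf43, Akr1c12 and Macrod1, of 23235 genes in the deposited table of 2 mouse acute promyelocytic leukaemias (APL), named APL#1 and APL#2. They were picked by hand as genes unusual for promyelocytes whose values in the leukaemias differed by a ratio above 3, with at least 1 FPKM in one of them. FPKM is a fragment count scaled for the length of the transcript and the size of the library. That choice used the same values that are given below, so the levels and ratios are a description with no test. Both leukaemias arose in C57BL/6-Ly5.2 mice that the labels call mCG-PML-RAR transgenic in one field and PML-RAR KI in another, and both groups therefore carry the PML-RAR fusion. The cells, marked by CD45.2, were grown in non-irradiated C57BL/6-Ly5.1 recipients after injection of 2000000 cells for APL#1 and 200000 for APL#2, and were purified from spleen by immunomagnetic selection for total RNA. Both samples are labelled as 10 weeks of age and untreated, although their titles carry the letters VEH. Each leukaemia is represented by 1 library, so leukaemia, recipient, cell dose and library cannot be told apart, and no difference has a replicate check. The libraries also differ at sex-linked genes, with Xist at 0.0319 FPKM in APL#1 against 8.20 in APL#2 and the Y-linked Eif2s3y at 2.06 and 0, and the sex of the mice is not labelled; its part in the results was not tested. The worth of 1 fragment on 1 kb was estimated at 0.0195 FPKM in APL#1 against 0.0181 in APL#2. Each is the median of low values, scaled to 1 kb, inside a fixed window of 0.015 to 0.026. The window held 103 of 411 and 132 of 496 low genes searched, and no estimate could fall outside it.

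Acute promyelocytic leukaemia is a block of granulocyte development at the promyelocyte, a cell that fills its primary granules with enzymes such as myeloperoxidase. The 6 genes belong to unrelated families that are better known from other tissues. Thbs4 encodes a secreted thrombospondin of tendon, muscle and nerve matrix, and Stag3 the STAG subunit of the cohesin ring used in meiosis. Bmp3 encodes a bone morphogenetic protein that opposes other members of its family. Rnf43 encodes a membrane ubiquitin ligase that removes Frizzled receptors and so dampens Wnt signalling. Akr1c12 encodes an aldo-keto reductase, an enzyme that reduces carbonyl groups, and Macrod1 a macrodomain hydrolase that takes ADP-ribose off proteins.

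The description as nearly private to one leukaemia held for 4 of the 6 genes. Stag3 and Bmp3 were nearly confined to APL#2, and Rnf43 and Akr1c12 to APL#1, each with a lower value under 0.1 FPKM. Thbs4 and Macrod1 were plainly present in both libraries and differed in amount. None of the 6 was listed at 0 in either library. By direction, 3 genes were higher in APL#1 (Thbs4, Rnf43 and Akr1c12) and 3 in APL#2 (Stag3, Bmp3 and Macrod1). Of all genes, 211 (0.908%) met the same ratio and level thresholds, 107 (0.461%) higher in APL#1 and 104 (0.448%) higher in APL#2. Without small RNA genes and rows of several symbols, 150 of 22407 (0.669%) met them. With the further condition of a lower value under 0.1 FPKM, 68 of all 23235 genes (0.293%) met them. Of the 22407, 10 (0.0446%) met this condition in favour of APL#1, Rnf43 and Akr1c12 among them, and 7 (0.0312%) in favour of APL#2, Stag3 and Bmp3 among them. These shares describe how rare such genes are in the table and, since the 6 were chosen on the same values, are no test of them. At the edge of the ratio threshold, Cd74 stood just inside at 3.01 and Fech just outside at 2.999. At the edge of the level threshold, Gm3604 stood just inside at 1.002 FPKM and Hpse just outside at 0.991 FPKM.

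**Figure D1:**
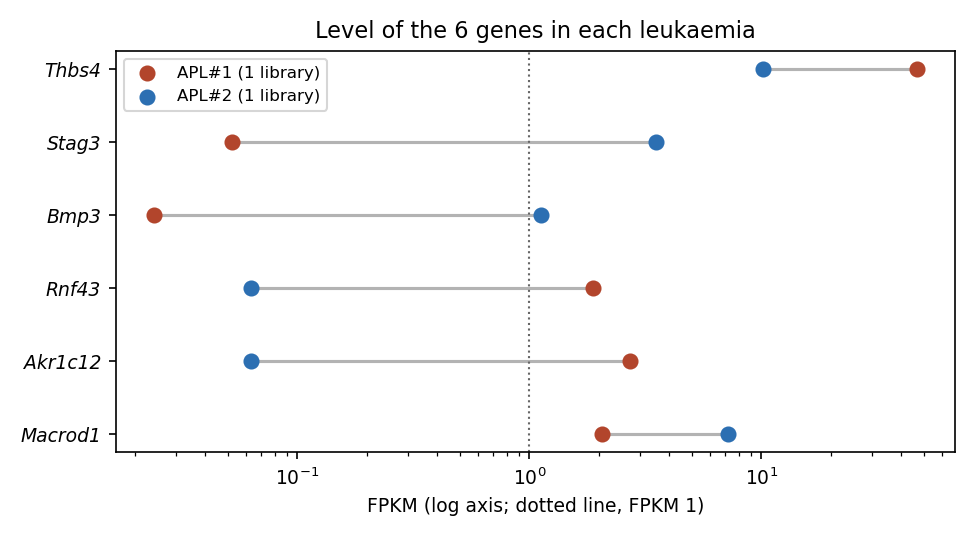
FPKM of the 6 genes on a log axis, 1 point per library (red, APL#1; blue, APL#2), joined by a line for each gene. Stag3, Bmp3, Rnf43 and Akr1c12 each have 1 library under 0.1 FPKM, while Thbs4 and Macrod1 lie above 1 FPKM in both.

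Promoter sequence is shown for Stag3 and Akr1c12, because each lies beside a gene that differed in the same direction, Gpc2 and Akr1c13. RefSeq promoters (GRCm38.p6) were found for 5 of the 6 genes. The 250 bases before the start site are printed 5′ to 3′, for Stag3 chr5:138280259-138280508 on the plus strand and for Gpc2 chr5:138279938-138280187 on the minus strand. Their capitals mark matches, on either strand, to 5 searched motifs: the TATA box TATAAA, the GC box GGGCGG, the NF-Y motif CCAAT, the E-box CACGTG and the E2F motif GCGGGAA.
Stag3: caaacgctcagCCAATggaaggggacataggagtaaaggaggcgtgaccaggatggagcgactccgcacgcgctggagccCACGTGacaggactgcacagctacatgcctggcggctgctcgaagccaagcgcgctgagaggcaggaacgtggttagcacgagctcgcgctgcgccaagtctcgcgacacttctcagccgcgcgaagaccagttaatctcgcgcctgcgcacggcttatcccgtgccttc
Gpc2: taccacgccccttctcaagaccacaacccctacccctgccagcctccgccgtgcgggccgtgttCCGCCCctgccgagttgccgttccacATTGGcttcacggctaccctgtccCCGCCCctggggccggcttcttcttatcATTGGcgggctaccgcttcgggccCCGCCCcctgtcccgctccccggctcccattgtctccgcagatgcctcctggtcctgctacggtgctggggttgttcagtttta
For Akr1c12 (chr13:4279400-4279649, minus strand) and Akr1c13 (chr13:4190937-4191186, plus strand) the capitals mark the bases that differ, or have no partner, when these sequences are aligned.
Akr1c12: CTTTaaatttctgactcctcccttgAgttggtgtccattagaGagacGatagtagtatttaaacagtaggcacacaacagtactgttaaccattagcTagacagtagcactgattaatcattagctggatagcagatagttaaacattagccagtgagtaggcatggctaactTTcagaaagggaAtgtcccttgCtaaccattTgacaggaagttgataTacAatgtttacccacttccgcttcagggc
Akr1c13: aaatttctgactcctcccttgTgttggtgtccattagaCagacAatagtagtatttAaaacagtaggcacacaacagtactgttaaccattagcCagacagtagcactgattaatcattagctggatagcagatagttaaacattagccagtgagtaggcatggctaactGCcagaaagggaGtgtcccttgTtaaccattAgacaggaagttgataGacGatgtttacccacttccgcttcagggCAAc
The Stag3 window held 1 CACGTG, an E-box found in 6.02% of 32851 such windows, and 1 CCAAT, found in 33.8%. The Gpc2 window held 3 GGGCGG, a GC box found in 32.7%, and 2 CCAAT. The Akr1c windows held none of the 5 motifs, and each held 2 CpG against 26 in that of Stag3 and a median of 6 over all windows. The Akr1c12 and Akr1c13 windows were identical at 235 of 246 aligned bases (95.5%). A motif match describes letters in the window and is not evidence of binding.

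Thbs4 was the most abundant of the 6 genes. It stood at 46.7 FPKM in APL#1 against 10.2 in APL#2, 4.59-fold higher in APL#1. Its level ranked 96 of 23235 genes in APL#1 and 366 in APL#2, so it was among the abundant RNAs of both leukaemias. From the worth of 1 fragment, an estimated 7675 fragments stood behind the APL#1 value and 1796 behind that of APL#2. Some genes are listed far below 1 fragment, such as Ndufs5 at 5.86e-05 FPKM in APL#1, so fragment counts here and below are estimates. The counting interval of the ratio was 4.36 to 4.83 at 95% confidence (exact binomial). Such intervals, here and below, cover counting error only and not the difference between animals. The q in the authors' deposited table was 0.0164, and the standard error that the authors' test statistic implies was 0.50 on the log2 scale.

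The other thrombospondin genes had other values than Thbs4. Thbs1, known from platelets and macrophages, was the reverse, with 0.147 FPKM in APL#1 against 1.62 in APL#2, 11.1-fold higher in APL#2 (counting interval 8.14 to 15.4). Its q in the authors' deposited table was 0.238. Of 5 megakaryocyte markers, Pf4, Ppbp and Gp9 were at 0 in both libraries, and the list summed to 2.37 FPKM in APL#1 against 3.96 in APL#2. Nearly all of that sum was Itga2b, at 2.34 and 3.95 FPKM. Of 6 macrophage markers, 3 were under 0.1 FPKM in both libraries, with Vcam1 at 3.94 and 7.47 FPKM and Emr1 at 0.0230 and 0.537, and the list summed to 4.14 and 8.19. The part of macrophages in the Thbs1 values was not tested. Thbs1 lies on chromosome 2 (mm9, 117937658 to 117952869) within a stretch (61549751 to 132576791) that was chosen from these same differences because its genes were lower in APL#2. Each of the 72 measured genes there, meaning genes with a mean of at least 1 FPKM, was lower in APL#2, at a median ratio of 0.432. Thbs3 and Comp, the close relatives of Thbs4, were under 0.1 FPKM in both libraries, and Thbs2 was listed at 0 in both. Of 16 listed receptors and partners of thrombospondins, 5 had a mean of at least 1 FPKM and 0 of these 5 were at least 2-fold different on the log2(FPKM + 1) scale. Over all 4100 measured genes 2.44% were at least 2-fold lower in APL#2 and 2.10% higher, so a count of 0 among so few genes is near the background. The receptor gene Cd47 stood at 4.31 and 3.29 FPKM in APL#1 and APL#2, Itga4 at 3.05 and 1.90, and Itgam at 1.58 and 1.83. Cd36, another receptor, was listed at 0 in both.

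Most markers of tissues known for Thbs4 were at 0. Of 7 tendon and muscle markers, 6 were under 1 FPKM in both libraries, with Tnmd, Myod1, Myh1 and Des at 0. Acta1 stood at 0.978 FPKM in APL#1 against 1.12 in APL#2, and the list summed to 1.51 FPKM in APL#1 against 1.95 in APL#2. Of 8 fibroblast and stromal markers, 5 were at 0 in both libraries (Col1a2, Col3a1, Dcn, Lum and Pdgfra), and Col1a1 stood at 0.0195 and 0.00720 FPKM. Pdgfrb was present in both, at 1.30 FPKM in APL#1 against 1.11 in APL#2. Postn, a matrix protein gene on the same list, stood at 11.6 FPKM in APL#1 against 6.94 in APL#2 and made up most of that list's sum of 12.9 and 8.06. All 10 promyelocyte markers had a mean of at least 1 FPKM, led by Mpo, and summed to 916.9 FPKM in APL#1 against 294.9 in APL#2. Most of that sum was Mpo itself, at 661.8 and 157.3 FPKM. Among these 10, 4 were at least 2-fold lower in APL#2 on the log2(FPKM + 1) scale (Mpo, Elane, Prss57 and Calr), beside 2.44% of all measured genes. Others were higher in APL#2, Ms4a3 at 7.85 and 15.9 FPKM and Ctsg at 7.89 and 8.99. The part of these differences in the Thbs4 values was not tested. In RNA from bulk cells, fewer cells of a type and less RNA per cell cannot be told apart.

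Stag3 had the widest ratio of the 6 genes. It stood at 0.0522 FPKM in APL#1 against 3.53 in APL#2, 67.6-fold higher in APL#2. About 11 fragments stood behind the APL#1 value, with a counting interval of 5.49 to 19.7 fragments (exact Poisson), and about 803 behind that of APL#2. The counting interval of the ratio was 37.8 to 137. The authors' deposited table gave a q of 2.48e-05, and the implied standard error was 1.03 (log2). Among genes on chromosome 5 with a mean of at least 1 FPKM, the difference of Stag3 ranked 2 of 255 toward APL#2.

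The other STAG genes were present in both leukaemias. The somatic counterparts of Stag3 stood at similar levels in both libraries, Stag2 at 1.92 and 1.70 FPKM and Stag1 at 1.20 and 0.967. In APL#2 the FPKM of Stag3, which is scaled to transcript length, was above that of either. In APL#1 it was far below both. The ring subunit genes Smc1a (3.28 and 2.41 FPKM), Rad21 (3.98 and 2.55) and Smc3 (0.674 and 0.957) were present in both libraries. The meiotic partners of Stag3 were nearly silent, with Rad21l at 0 in both libraries, Rec8 at 0 and 0.0175 FPKM, and Smc1b at 0.00456 and 0.00843. Of 14 listed cohesin loaders and regulators, 6 had a mean of at least 1 FPKM and 0 were at least 2-fold different, near the 2.44% lower and 2.10% higher of all measured genes. Their median log2 difference was -0.26, beside -0.17 over all 4100 measured genes. Hdac8, which recycles cohesin, stood at 2.89 and 2.79 FPKM, Pttg1 (securin) at 2.57 and 2.00, and Ctcf at 2.01 and 1.43.

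Other meiosis genes were mostly off in both leukaemias. Of 21 found in the table, 10 were at 0 in both libraries and 20 were under 1 FPKM in both. The exception was Syce2, of the synaptonemal complex, at 1.79 FPKM in APL#1 against 1.51 in APL#2. The recombinase gene Dmc1 stood at 0.730 and 0.887 FPKM, and Prdm9, which places meiotic recombination, at 0.226 and 0.586. The 6 germ cell markers summed to 0.155 FPKM in APL#1 against 0.157 in APL#2, with Zp3 at 0 in both.

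Gpc2 and Zcwpw1, on the same side of Stag3 on chromosome 5, were also higher in APL#2. Gpc2, a surface proteoglycan gene, lies 572 bases from Stag3 (mm9, 138721737 to 138753621) and starts 572 bases from it on the opposite strand in RefSeq, so the promoters printed above lie back to back. Gpc2 stood at 0.379 FPKM in APL#1 against 1.56 in APL#2, 4.12-fold higher in APL#2 (counting interval 3.01 to 5.74). Whether the authors' counting used the strand of reads was not given in the sources used here. Zcwpw1, a chromatin reader that acts in meiosis, lies 484.4 kb away between gene midpoints and was picked out with its values in view. Zcwpw1 stood at 0.414 FPKM in APL#1 against 2.52 in APL#2, 6.07-fold higher in APL#2. Pilra, an immune receptor gene that shares its locus in the table, stood at 0.484 and 1.41. Genes between Zcwpw1 and Stag3 differed in direction: Pilrb1 stood at 1.17 and 1.97 FPKM, while Cnpy4 stood at 2.30 and 0.769 and Taf6 at 2.20 and 1.07. The 23 genes within 500 kb with a mean of at least 0.1 FPKM had a median log2 difference of -0.05, with a range of -0.90 to 1.31. For both Gpc2 and Zcwpw1 the q in the authors' deposited table was 1.00. The 10 measured genes nearest to Stag3 had a median log2 difference of -0.19, equal to that of chromosome 5 (-0.19).

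Bmp3 was the lowest of the 6 genes at its peak. It stood at 0.0241 FPKM in APL#1 against 1.12 in APL#2, 46.7-fold higher in APL#2. The APL#1 value rests on about 3 fragments with the shortest annotated coding transcript and about 8 with the longest. With 3 fragments the counting interval of the ratio was 17.8 to 258. A q of 0.0280 stood in the authors' deposited table, and the implied standard error was 1.31 (log2), among the widest of the 6.

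No other ligand of the BMP group approached the level of Bmp3 in APL#2. Of 24 genes listed by BMP, GDF, inhibin or TGF-beta name, 13 were at 0 in both libraries. Among them were Bmp2, Bmp4, Bmp6, Bmp7 and Gdf10, the closest relative of Bmp3. Tgfb1 was the 1 listed ligand with a mean of at least 1 FPKM, at 8.67 in APL#1 and 5.91 in APL#2. All 10 listed receptors were under 1 FPKM in both libraries. Acvr1b, an activin receptor gene, stood at 0.979 and 0.421 FPKM, and the BMP receptor gene Bmpr1a at 0.411 and 0.371. All 10 listed inhibitors were also under 1 FPKM, with Smad7 at 0.755 and 0.863 FPKM and Fst, which binds activins, at 0.303 and 0.0531. Id1 and Id2 are genes that BMP signalling induces in many cells. Id1 had values of 1.29 FPKM in APL#1 against 2.88 in APL#2, and Id2 of 1.02 and 0.303, so the higher library was not the same for both. Smad4, the shared signal carrier, stood at 0.814 and 0.665 FPKM.

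Bmp3 lies in a gene-poor part of chromosome 5 (mm9, 99283458 to 99309979). The flanking genes were low or absent, and neither of the nearest was higher in APL#2: Prkg2 was at 0 in both libraries, and 1700007G11Rik stood at 0.373 FPKM in APL#1 against 0.0492 in APL#2. The 5 measured genes on each side of Bmp3 had a median log2 difference of -0.16. The small RNA Mir703, in the same locus as 1700007G11Rik, stood at 815.2 and 1421 FPKM, values that FPKM makes unreliable for so short a gene. Hnrnpd, the nearest measured gene on the other side, lies 1075 kb away.

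**Figure D2:**
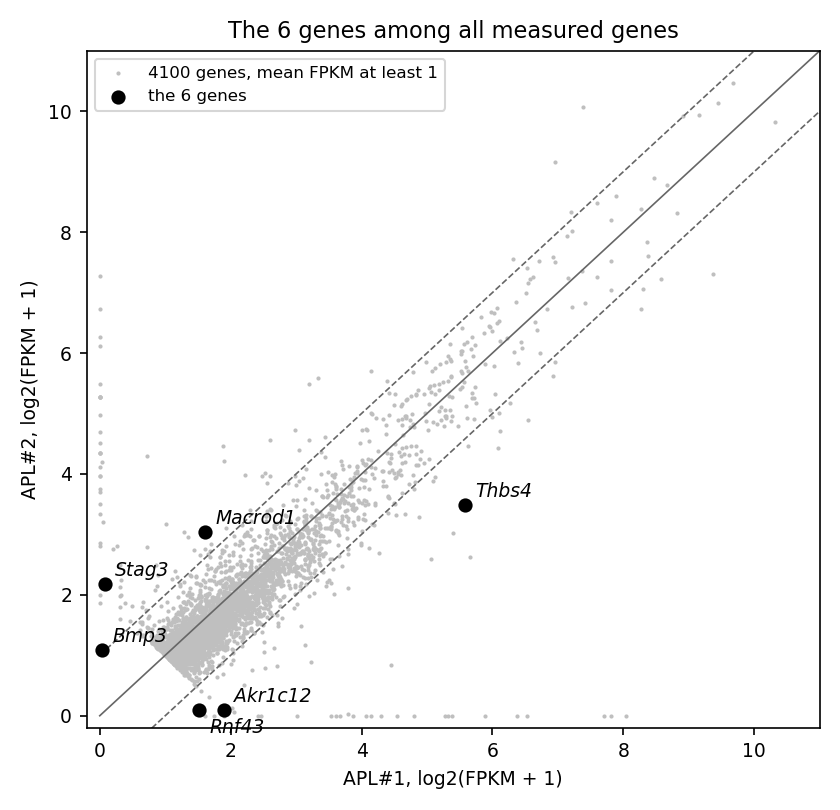
Each grey point is 1 of 4100 genes with a mean of at least 1 FPKM, by log2(FPKM + 1) in APL#1 (x axis) and APL#2 (y axis); black points are the 6 genes, and dashed lines mark a 2-fold difference on this scale. Stag3 and Bmp3 lie along the APL#2 axis, Rnf43 and Akr1c12 along the APL#1 axis, and Thbs4 and Macrod1 away from both axes.

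Rnf43 was seen almost wholly in APL#1. It stood at 1.87 FPKM in APL#1 against 0.0630 in APL#2, 29.7-fold higher in APL#1. Between 9 and 15 fragments stood behind the APL#2 value, depending on the transcript, and with 9 the counting interval of the ratio was 15.7 to 67.0. The authors' deposited table listed a q of 0.0318, and the implied standard error was 1.17 (log2).

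The partners of Rnf43 were scarce in both leukaemias. Its paralog Znrf3 stood at 0.0717 FPKM in APL#1 against 0.114 in APL#2. Of the LGR receptors, which with R-spondins hold RNF43 and ZNRF3 in check, Lgr5 was at 0 in both libraries, Lgr4 stood at 0.0216 and 0.0400 FPKM and Lgr6 at 0.0767 and 0.0899. Rspo2 and Rspo3 were at 0 in both. All 15 listed Wnt receptors were under 1 FPKM in both libraries and 7 were at 0, with Lrp6 at 0.176 and 0.335 FPKM, Lrp5 at 0.148 and 0.257 and Fzd1 at 0.193 and 0.205. Core components were present: of 15 listed, 6 had a mean of at least 1 FPKM, with a median log2 difference of -0.21. Of these 6, 0 were at least 2-fold different, near the 2.44% lower and 2.10% higher of all measured genes. Ctnnb1, beta-catenin, stood at 1.88 and 1.09 FPKM, and Wls, which carries Wnt proteins to the surface, at 2.87 and 2.39. Of 12 listed Wnt targets, 9 were under 0.1 FPKM in both libraries, among them Lef1 at 0 and 0.0431 FPKM. Axin2, a direct feedback target, stood at 0.0475 and 0.112. The broader targets Myc (1.59 and 2.20 FPKM) and Tcf7 (1.05 and 1.73) had a mean of at least 1 FPKM.

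Rnf43 lies on chromosome 11 (mm9, 87476589 to 87549041, a locus it shares in the table with 1110028F11Rik), 58.2 kb from Mpo. Mpo stood at 661.8 FPKM in APL#1 against 157.3 in APL#2, 4.21-fold higher in APL#1. Bzrap1, between them, was 1.84-fold higher in APL#1, at 15.6 and 8.46 FPKM. Supt4h1, which lies 2.03 kb from Rnf43 and is its nearest measured neighbour, stood at 2.83 and 3.01 FPKM. Mir142, also in the interval, stood at 90.9 and 168.2 FPKM, and a short RNA gene of this kind is poorly measured by FPKM. Mpo was at least 2-fold lower in APL#2 on the log2(FPKM + 1) scale, as was 1100001G20Rik (24.3 and 9.11 FPKM), which lies 3910 kb away on the other side. The median log2 difference of the 5 measured genes on each side of Rnf43 was -0.20, beside -0.19 for chromosome 11. 1110028F11Rik stood at 0.0140 FPKM and 0.

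Akr1c12 was likewise seen almost wholly in APL#1, together with its neighbour Akr1c13. Akr1c12 stood at 2.71 FPKM in APL#1 against 0.0630 in APL#2, 43.1-fold higher in APL#1. About 4 fragments stood behind the APL#2 value, and the counting interval of the ratio was 18.1 to 175. The q of Akr1c12 in the authors' deposited table was 0.04996, and the implied standard error was 1.34 (log2). Akr1c13 stood at 3.05 and 0.0944 FPKM, 32.4-fold higher in APL#1 (counting interval 14.5 to 76.5), with a q of 0.0565 in the authors' deposited table.

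The Akr1c12 and Akr1c13 transcripts are close copies, so their separate values are uncertain. The GENCODE transcripts, of 1261 and 1262 bases, were identical at 94.6% of aligned bases. Of 1212 stretches of 50 bases in Akr1c12, 347 (28.6%) also occur in Akr1c13, and of 1162 stretches of 100 bases 134 do (11.5%). Read length was not given in the sources used here. Any read that lies within such a stretch could come from either gene. The other Akr1c transcripts shared none of these stretches. Of the other 5 members of the 6 genes, only Bmp3 shared any stretch of 50 bases with other genes, at 13 of 6560.

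The remaining Akr1c genes of the cluster were at or near 0. Akr1c14, Akr1c18, Akr1c19, Akr1c20 and Akr1c21, which lie around Akr1c12 (mm9 chromosome 13, 4267418 to 4278645), were at 0 in both libraries, and Akr1c6 stood at 0.0151 FPKM and 0. Akr1e1, 313 kb away at the end of the cluster, stood at 0.556 and 0.171 FPKM. Elsewhere in the superfamily, Akr1a1, an aldehyde reductase, stood at 8.24 FPKM in APL#1 against 4.82 in APL#2, and Akr1b3, aldose reductase, at 1.77 and 0.409. Akr1b10 stood at 0.812 and 0.574 FPKM and Akr7a5 at 0.533 and 0.381. All 5 of these other reductases with at least 0.1 FPKM in one library were lower in APL#2, at ratios of 0.231 to 0.714. The median ratio over all measured genes was 0.835, so most of those genes were also lower in APL#2. A shared direction of 5 genes is therefore little apart from the background. Akr1b10, Akr1e1 and Akr7a5 had means under 1 FPKM and are not among the measured genes. On the log2(FPKM + 1) scale none of these 5 differed by 2-fold, as 100 of the 4100 measured genes (2.44%) did toward APL#1. Akr1b3 was just short of it at -0.98. By plain ratio Akr1b3 was 4.33-fold higher in APL#1, inside the ratio and level thresholds used to pick the 6 genes. Akr1e1 was 3.24-fold higher in APL#1, with both values under 1 FPKM. Rnf43 and the Akr1c genes are known from gut and liver. Of 7 liver and gut epithelium markers 5 were at 0 in both libraries, and the list summed to 0.7498 FPKM in APL#1 against 0.778 in APL#2. Nearly all of that sum was Cdh1, at 0.744 and 0.772 FPKM. The lymphoid and red cell markers that were found were also near 0. Those of B cells (5 of 6 found) summed to 0.196 and 0.404 FPKM and of T cells (5 of 6) to 0.0526 and 0.182. Those of erythroid cells (4 of 6) summed to 0.0799 and 0.0747. Ighm, Trac, Hbb-b1 and Hba-a1 were not found under those names, so these sums leave them out. Of 6 endothelial markers, 4 were at 0 in both libraries, and the list summed to 3.62 and 1.62 FPKM, nearly all of it Pecam1.

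**Figure D3:**
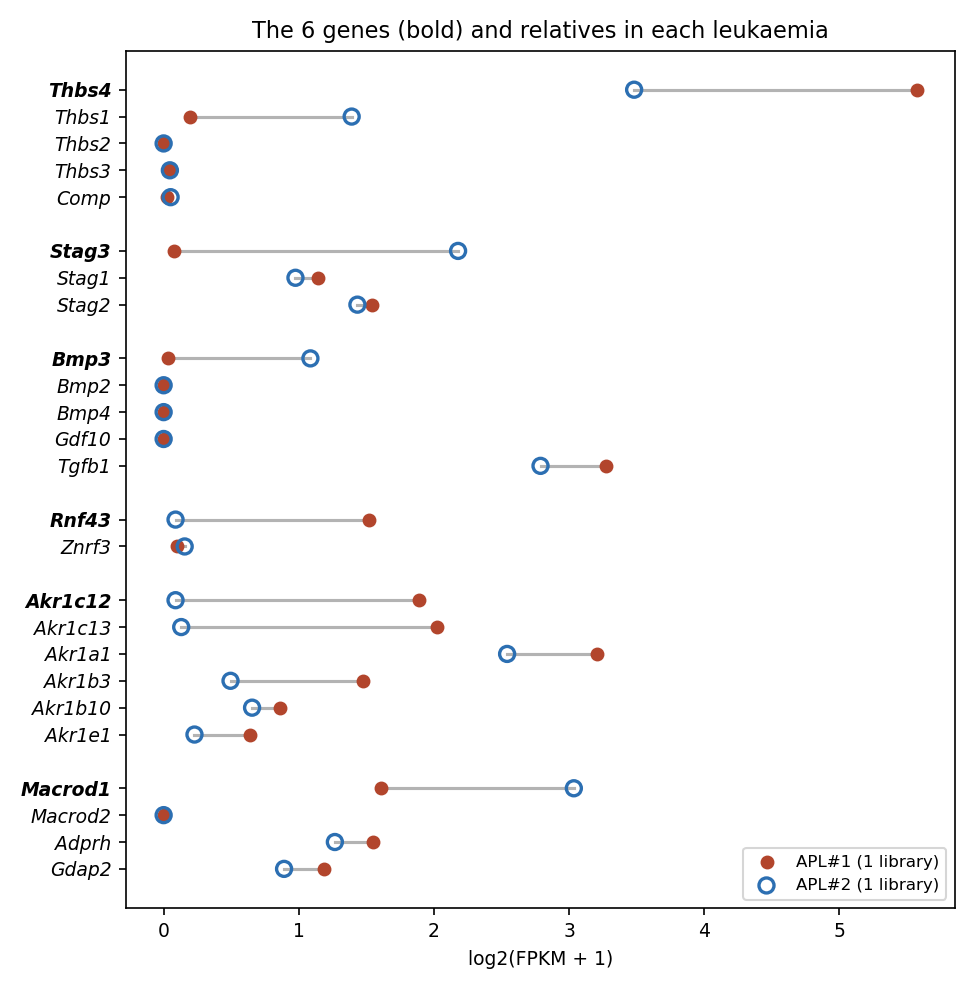
Level on the log2(FPKM + 1) scale in APL#1 (red, filled) and APL#2 (blue, open) for the 6 genes in bold and relatives from the listed families, 1 library each. Akr1c13 is the relative that lies beside its member in both libraries, and Thbs1 goes against Thbs4.

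Macrod1 had the smallest ratio of the 6. It stood at 2.06 FPKM in APL#1 against 7.20 in APL#2, 3.50-fold higher in APL#2, with a counting interval of 2.87 to 4.27 from about 130 and 488 fragments. With a q of 1.00 in the authors' deposited table, Macrod1 is the 1 of the 6 that did not reach 0.05. The other 5 were among the 11 genes (0.0473%) at or under 0.05 in the authors' deposited table. Since the members were chosen on these values, that count is not support for them.

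Macrod1 lies on chromosome 19 (mm9, 7131258 to 7272552, with Flrt1 in the same locus), whose measured genes stood higher in APL#2 as a whole. The median ratio of the other 133 measured genes there was 1.62, and Macrod1 exceeded it by 2.15-fold. Its difference ranked 4 of 134 on the chromosome. Neighbours were also higher in APL#2: Fermt3, an integrin activator of blood cells, at 2.21 and 5.64 FPKM (2.55-fold), Cox8a at 26.5 and 50.5 (1.90-fold) and Otub1, 144 bp away, at 1.19 and 1.94. Fkbp2, Trpt1 and Vegfb were lower in APL#2 (4.13 and 3.59 FPKM, 0.136 and 0.105, and 0.702 and 0.660). Nudt22 was nearly equal, at 0.704 and 0.712 FPKM. Flrt1, a gene nested within Macrod1, was at 0 in both libraries.

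Macrod2, the paralog of Macrod1, was at 0 in both libraries. Of 9 related genes found, 4 had a mean of at least 1 FPKM, with a median log2 difference of -0.29. Of these 4, 0 were at least 2-fold different, near the 2.44% lower and 2.10% higher of all measured genes. H2afy, a histone with a macrodomain, stood at 8.07 FPKM in APL#1 against 4.64 in APL#2, the hydrolase gene Adprh at 1.93 and 1.41, and Gdap2 at 1.27 and 0.855. Of 16 genes of the PARP family, known for adding ADP-ribose, 4 had a mean of at least 1 FPKM, with a median log2 difference of -0.21. Among those 4, 0 were at least 2-fold different, again near that background of 2.44% and 2.10%. Parp8 was the highest, at 16.9 and 15.0 FPKM, followed by Zc3hav1 at 2.15 and 1.62 and Parp2 at 1.74 and 1.47.

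On the log2(FPKM + 1) scale, which damps low genes, the order of differences changed. Stag3 stood at 2.11 toward APL#2 and Thbs4 at -2.09, followed by Akr1c12 at -1.80, Rnf43 at -1.43, Macrod1 at 1.42 and Bmp3 at 1.05. All 6 were past 2-fold on this scale, as were 100 measured genes lower in APL#2 (2.44%) and 86 higher (2.10%). A mean of at least 1 FPKM was reached by 4 of the 6 genes. Bmp3 (0.574) and Rnf43 (0.968) fell short of it. By plain ratio, among 81 genes higher in APL#1 that met the thresholds and were not small RNA genes or rows of several symbols, Akr1c12 ranked 4, Rnf43 6 and Thbs4 29. Among 69 such genes higher in APL#2, Stag3 ranked 6, Bmp3 7 and Macrod1 50.

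The genes closest in values to each of the 6 were found by distance on the log2(FPKM + 1) scale over the 2 libraries, small RNA genes and rows of several symbols left out. With 2 points per gene this is a description of like levels. Akr1c13 was the closest to Akr1c12 (distance 0.13), followed by Clec2i (0.16) and Eif2s3y (0.29). Eif2s3y was the closest to Rnf43 (0.13), before Hist1h3e and Marcksl1 (both 0.27). Closest to Bmp3 were Lim2 (0.03), a lens membrane protein gene listed at 0 in APL#1 and at 1.12 FPKM in APL#2, Fgf3 (0.13) and Adcy2 (0.15). Stag3 lay nearest to the histone genes Hist1h2bq (0.25) and Hist1h2br (0.27) and to I730030J21Rik (0.30). Macrod1 lay nearest to Trf (0.22), which encodes transferrin, Gda (0.27) and Mt2 (0.28). Thbs4, in a thinly filled range of high values, had Cpa3 as the closest (0.50), a mast cell protease gene at 41.3 FPKM in APL#1 against 7.09 in APL#2, then Hspa5 (0.64) and H2afz (0.85).

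By position, the 6 genes lie on 4 chromosomes, Stag3 and Bmp3 on chromosome 5 and Thbs4 and Akr1c12 on chromosome 13, far apart on each. Macrod1 was the 1 gene whose surroundings stood higher in APL#2. The median log2 difference was 0.43 for the 5 measured genes on each side of it and 0.43 for chromosome 19. For the others both medians were below 0. Thbs4 (mm9 chromosome 13, 93521541 to 93564773) had low flanking genes, Serinc5 at 0.181 and 0.0759 FPKM (39.6 kb away) and Mtx3 at 0.239 and 0.392 (49.97 kb away). The 5 measured genes on each side of Thbs4 had a median log2 difference of -0.14, none past 2-fold. Thbs4 was the lowest of 170 on chromosome 13, whose median was -0.22. The 7 measured genes taken as neighbours of Akr1c12 had a median of -0.19, with Akr1c13 the 1 past 2-fold.

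**Figure D4:**
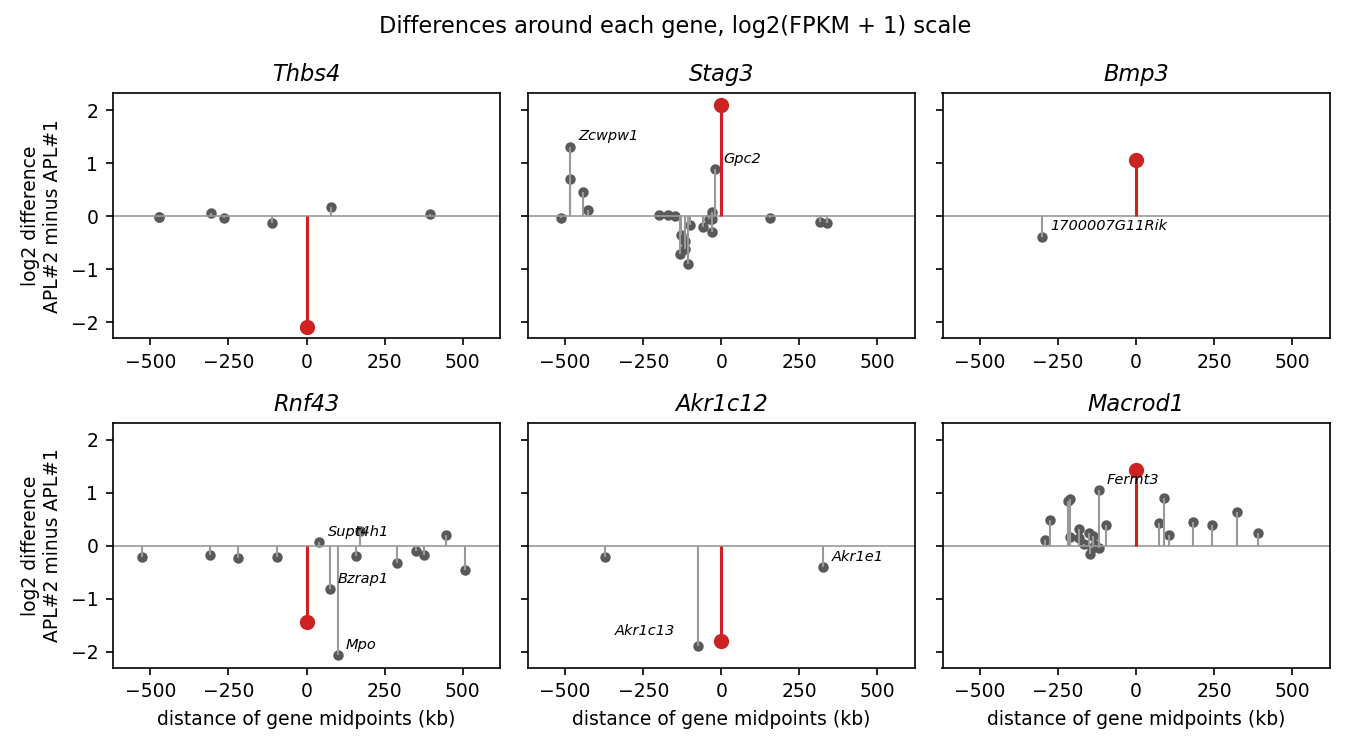
Log2 difference (APL#2 minus APL#1, log2(FPKM + 1) scale) of each of the 6 genes (red) and of the genes within 500 kb of its ends with a mean of at least 0.1 FPKM (grey), by distance between gene midpoints in kb; small RNA genes are left out. Mpo lies near Rnf43, Akr1c13 near Akr1c12, and Gpc2 and Zcwpw1 near Stag3, each in the same direction as that gene, and Fermt3 near Macrod1 is also higher in APL#2.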

How the data were processed

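RNA was sequenced from 2 libraries, 1 for each leukaemia. Tools named in the submitters' processing notes are Cuffdiff, Cufflinks and TopHat2 2.0.10, and the build is mm9; their order is unstated. The values deposited by the authors were read as FPKM from the table's layout, since its header names no unit. The deposited table also holds, per the file headers, a test statistic, a score of the authors' own comparison, and their p-value and q-value. The annotation, strand, read layout and normalization were not given in the sources used here.

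Each log2 difference is log2(FPKM + 1) of APL#2 minus that of APL#1, a pseudocount of 1 that understates low genes, with plain ratios beside them. No test was run. The worth of 1 fragment on 1 kb was taken as the median inside a fixed window of 0.015 to 0.026. It was 0.0195 FPKM in APL#1 and 0.0181 in APL#2, from 103 and 132 low genes with 1 GENCODE transcript of over 1000 bases. Fragment counts of single genes were estimated from this and the shortest coding transcript of at least 1000 bases. The reference lengths may differ from those the authors used. Implied standard errors are the plain log2 ratio divided by the authors' test statistic. Coordinates are mm9 from the table; promoters are RefSeq on GRCm38.p6, and the builds were not mixed.

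The members and lists were chosen with earlier results of these data known. By rule the text names the 6 genes, close paralogs, the up to 3 highest genes of each list and any past 2-fold, neighbours past 2-fold or nearest, the rows at the edges of the thresholds and the 3 genes most alike. Others, such as marker genes, flanking genes and low relatives, were named with their values in view. Scripts used Python 3.11.15, pandas 2.3.3 and Biopython 1.88 and were tested on simulated data. Neighbours for the medians are the 5 measured genes on each side in map order, fewer near a chromosome end. Nearer genes on a crowded side can thus be left out. Alternatives tried were other pseudocounts, scalings, filters, thresholds and neighbour numbers.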

Additional observations from a re-analysis of the deposited data

How the results depend on the processing

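All 6 differences kept their direction in the 5 other settings tried, but this outcome was fixed in advance. A change of pseudocount cannot reverse a difference, and the scalings were too small to reverse a ratio above 3. A smaller pseudocount widened the differences. With 0.1 and 0.01 the log2 differences were -2.19 and -2.20 for Thbs4, 4.58 and 5.83 for Stag3, 3.30 and 5.06 for Bmp3, -3.60 and -4.69 for Rnf43, -4.11 and -5.22 for Akr1c12, and 1.76 and 1.80 for Macrod1. With APL#2 divided by the all-gene median ratio, Thbs4 stood at -1.85; with division by the median ratio of its own chromosome, a setting chosen after seeing the data, Thbs4 stood at -1.79 and Macrod1 at 0.83, below 2-fold. Genes inside the thresholds and higher in APL#1 numbered 65 with a ratio above 4 and 63 with at least 2 FPKM in one library. Division by the all-gene median ratio gave 74 higher in APL#1 and 142 higher in APL#2 in place of 107 and 104. Genes past 2-fold numbered 252 lower and 132 higher with a pseudocount of 0.1, and 65 and 46 with a mean of at least 5. Without small RNA genes 53 were higher, and with the all-gene median ratio divided out 70 were lower and 144 higher. With a pseudocount of 0.1 the medians of cohesin regulators and of macrodomain genes moved to -0.39 and -0.48. No neighbour median moved beyond the interquartile range of its genes with 3 or 10 genes on each side. No paired analysis was possible because each leukaemia has 1 library. Depth limits the ratios of Bmp3 and Akr1c12 most, which rest on about 3 and 4 fragments in the lower library.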

Other observations

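Beside Rnf43 and Akr1c12, the genes that met the ratio and level thresholds in favour of APL#1 with a lower value under 0.1 FPKM included Xlr, an X-linked gene of lymphoid and germ cells (12.9 and 0.0195 FPKM), Clec2i, a lectin gene (3.13 and 0.0420 FPKM), Camk2a, a calcium-dependent kinase gene (1.24 and 0.0676), Gpc1, a glypican gene like Gpc2 (1.22 and 0.0580), and Tnfrsf13b, a receptor known from B cells (1.02 and 0.0592). In favour of APL#2 they included, beside Stag3 and Bmp3, Lilrb4, an inhibitory receptor gene of myeloid cells (0.0144 and 1.62 FPKM), and Pcbp3, an RNA-binding protein gene (listed at 0 and at 1.40). All of these were picked out with their values in view. Gpc1 and Gpc2 went in opposite directions, Gpc1 21.0-fold higher in APL#1 and Gpc2 4.12-fold higher in APL#2.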
